A study of Mus musculus with 54 samples.

Results

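The interferon response and antigen processing genes followed here are 48 named genes, chosen with earlier results of these data known. All 48 were listed among the 10799 genes of the culture table. The table of nILC2 and iILC2 listed 46 of them among 10176 genes. Ifitm1 and Ifitm3 were not analysed there. By role the 48 comprise 5 transcription factors and signalling proteins, 6 ubiquitin-like or ADP-ribose modifiers, 5 nucleic acid sensors, 8 GTPases, 16 membrane and effector proteins, and 8 antigen processing proteins.

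RNA was sequenced by Smart-seq2, a full-length method for few cells, from group 2 innate lymphoid cells (ILC2s) of the small intestine of C57BL/6 mice aged 8 to 12 weeks, labelled as pooled male and female. In the first experiment WT cells were kept in vitro in IL-2 and IL-7 with IL-25 or without it for 4, 48 or 72 h, with 4 libraries in each of 6 groups. In the second, cells labelled as primary, with IL-25 for 48 h as the stated treatment of every group, were iILC2 KO, iILC2 CTRL, nILC2 KO and nILC2 CTRL, again with 4 libraries each. The labels do not spell out n and i, and whether that IL-25 was given to the mice or to the cells was not settled by them. KO refers to the nuclear receptor gene Rxrg, given as Rxrg-/- against Rxrg+/+ in the series text, while the name of the deposited table marks the KO as cKO, so the kind of deletion differs between these sources. CTRL libraries carry the genotype label WT. Nothing in the labels says whether the libraries of a group came from separate mice or cultures, so p-values measure the spread between these libraries only. Values are in TPM, transcript abundance scaled by length and to a fixed total per library. The read depth behind them is unknown.

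Interferons act through JAK kinases on a factor complex that includes STAT2 and IRF9 and binds the interferon-stimulated response element (ISRE) in promoters, while interferon gamma acts mainly through the gamma-activated site (GAS). The genes so induced encode sensors of foreign nucleic acid, GTPases that attack intracellular vacuoles, membrane proteins that hinder virus entry, and the machinery that cuts proteins and presents the peptides on MHC class I. IRF1 and NLRC5 keep much of the MHC class I set expressed without infection. ILC2s are tissue lymphocytes that answer IL-25 with type 2 cytokines.

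ILC2 identity was followed with 10 marker genes, among them Gata3, Il7r and Il1rl1, all listed in both tables. Their listing does not settle which cells the libraries held. Of markers of other cells, Ms4a1 (B cells), Csf1r and Lyz2 (macrophages), Cpa3 (mast cells) and Trac and Cd3d (T cells) were not analysed here. Other such markers were listed. Cd79b (B cells) reached 282 TPM in iILC2 CTRL, and 4 macrophage and dendritic cell markers summed to at most 370 TPM in nILC2 CTRL. Kit (mast cells) reached 171 TPM at 4 h with IL-25. The haemoglobin genes Hba-a1 and Hba-a2 summed to at most 798 TPM at 72 h without IL-25. Library sums of the listed genes were 873200 to 898025 TPM in culture and 849733 to 886670 TPM in nILC2 and iILC2. A pair of libraries stood apart in the genes studied here. The nILC2 KO library numbered 1 had the highest value of its group in 36 of 46 genes (78.3%), against 27.9% over all genes, and the library without IL-25 at 72 h numbered 2 had it in 35 of 48 (72.9%), against 22.7% over all genes. Y-linked genes summed to 93.4 to 142 TPM in 10 nILC2 and iILC2 libraries and to 0 to 0.59 TPM in the other 6, among them both KO libraries numbered 1 and both numbered 2 (the 2 others were CTRL libraries numbered 2), which goes against a pooled label.

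Promoter windows (250 bases before to 50 after a start, RefSeq, GRCm38.p6) were found for 37 of the 48 genes, 47 windows in all. The ISRE core, searched as GAAA, any 2 bases and GAAA on both strands, lay in 18 of 47 windows (38.3%) and in 3.44% of all 32851 windows. The GAS, searched as TTCNNNGAA, which reads the same on both strands, lay in 11 of 47 windows (23.4%) and in 8.30% of all. A match is a description of these letters and does not show that a factor binds. The 8 stretches of 60 bases below are shown because genes with like letters responded differently to IL-25: Gbp2, Gbp7, Tgtp1 and B2m fell at 48 and 72 h, Isg15 fell at 48 h alone, Igtp was called only at 72 h, Bst2 at no time, and Ifitm2 rose. Each is written 5′ to 3′ on the strand of the gene, with every ISRE core, forward or as its reverse complement, in capitals.
Isg15, chr4:156200850-156200909, minus strand: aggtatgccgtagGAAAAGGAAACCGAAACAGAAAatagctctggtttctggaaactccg
Gbp2, chr3:142620579-142620638, plus strand: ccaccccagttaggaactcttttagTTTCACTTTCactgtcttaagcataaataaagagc
Gbp7, chr3:142530258-142530317, plus strand: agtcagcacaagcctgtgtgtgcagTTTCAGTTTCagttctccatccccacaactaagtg
Tgtp1, chr11:48992289-48992348, minus strand: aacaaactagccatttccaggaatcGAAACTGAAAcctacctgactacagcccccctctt
Igtp, chr11:58199496-58199555, plus strand: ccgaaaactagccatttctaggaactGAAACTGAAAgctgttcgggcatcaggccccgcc
B2m, chr2:122147523-122147582, plus strand: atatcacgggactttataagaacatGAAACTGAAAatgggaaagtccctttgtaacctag
Bst2, chr8:71537562-71537621, minus strand: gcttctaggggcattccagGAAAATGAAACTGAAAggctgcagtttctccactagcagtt
Ifitm2, chr7:140955973-140956032, minus strand: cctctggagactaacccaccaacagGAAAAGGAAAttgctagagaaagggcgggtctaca
The Isg15 stretch holds 3 overlapping cores, the Bst2 stretch 2, and the other 6 hold 1 each. Tgtp1, Igtp, B2m and Bst2 share the core GAAACTGAAA, which Gbp7 holds as its reverse complement. The responses of these genes ranged from the largest fall at 48 h to none called. The median log2 fold changes with IL-25 at 4, 48 and 72 h were -0.54, -1.21 and -0.82 in the 17 genes with an ISRE core in a window and -0.65, -0.92 and -0.79 in the 20 without one, so the order of the sets was not the same at each time.

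IL-25 lowered most of these genes at every time, and most at 48 h. A gene was called changed at an adjusted p under 0.05 (limma over all genes tested, on log2(TPM + 1)). At 4 h 36 of 48 genes were lower, where 26.9% of all genes tested were, and 1 was higher, where 13.4% of all genes were. At 48 h 39 were lower (background 28.7%) and 4 higher (background 21.4%). At 72 h 35 were lower (background 33.2%) and 3 higher (background 15.3%). The median log2 fold change of the 48 was -0.65 at 4 h, -1.16 at 48 h and -0.85 at 72 h, against -0.12, -0.09 and -0.20 over all 10548 genes tested. Scaling by the median of ratios moved the median of all genes to 0.0034 at 4 h, -0.0072 at 48 h and 0.0065 at 72 h, and that of the 48 to -0.50, -1.09 and -0.64. It raised the share of called genes that were higher, over all genes, to 51.5% against 33.3% at 4 h and to 55.1% against 31.5% at 72 h. All 48 had passed the filter on low values, but Usp18, Oasl2 and Iigp1 were under 1 TPM in every IL-25 library at 48 and 72 h, and Rtp4 at 48 h. In such bulk libraries fewer cells with a transcript and less of it per cell cannot be told apart. In all, 28 genes fell at all 3 times, where 11.1% of all genes did, Ifitm2 rose at all 3 (background 3.96%), and Bst2, which encodes the virus tether tetherin, was called at none.

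**Figure D1:**
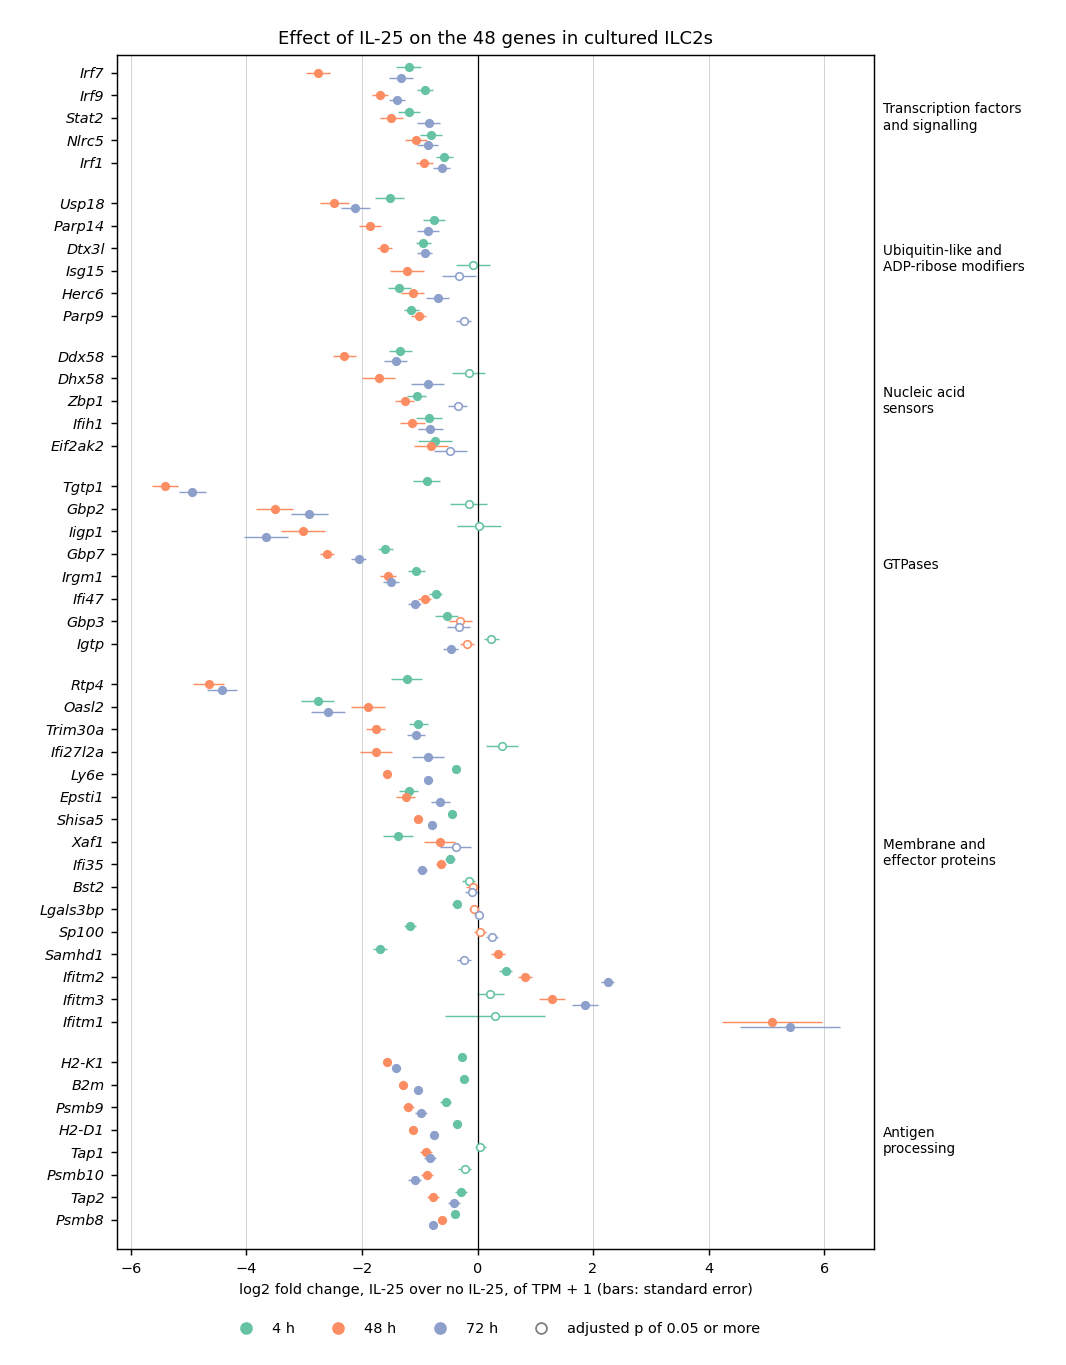
Log2 fold change of TPM + 1 (x axis, bars are standard errors) of IL-25 over no IL-25 for each of the 48 genes (y axis), in groups by role, at 4, 48 and 72 h; filled points passed an adjusted p of 0.05. All 5 transcription factor and signalling genes lie left of 0 at every time, Tgtp1 and Rtp4 lie farthest left, and the 3 Ifitm genes lie right of 0 at 48 and 72 h.

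The transcription factor and signalling genes fell together, all 5 at each time. Irf7, which amplifies interferon production, had 5.05, 4.55, 6.96 and 4.72 TPM at 4 h with IL-25, against 13.1, 18.4, 11.2 and 11.5 TPM without it. By 48 h the values were 2.54, 2.85, 1.23 and 1.53 TPM with IL-25, against 17.8, 18.3, 23.9 and 17.1 TPM without. The groups did not overlap, and the log2 fold change was -1.19 ± 0.21 at 4 h and -2.76 ± 0.21 at 48 h (SE, n = 4 each; adjusted p = 6.6e-05 and 5.1e-11). At 72 h Irf7 stood at 7.12, 9.0, 9.03 and 7.0 TPM with IL-25, against 17.3, 34.4, 21.5 and 16.7 TPM without, a log2 fold change of -1.33 ± 0.21 (adjusted p = 1.3e-05). Of the 3 times, 48 h had the lowest Irf7 values with IL-25.

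Stat2 and Irf9 encode members of the complex that binds the ISRE. Stat2 had 7.02, 5.30, 8.29 and 6.27 TPM at 4 h with IL-25, against 15.97, 17.4, 17.1 and 14.99 TPM without it, and at 48 h 3.71, 3.14, 3.38 and 4.12 TPM with IL-25, against 12.8, 16.1, 9.38 and 10.1 TPM without. No library overlapped at 4 or 48 h, with log2 fold changes of -1.18 ± 0.19 and -1.49 ± 0.19 (adjusted p = 2.3e-05 and 5e-07). Irf9 had 12.1, 11.2, 14.1 and 11.6 TPM at 48 h with IL-25, against 39.9, 34.05, 47.7 and 46.6 TPM without it, 3.43-fold lower by the means. Irf1, the factor that keeps MHC class I genes expressed, changed least of the 5, with 44.4, 38.2, 47.4 and 41.1 TPM at 48 h with IL-25, against 84.6, 77.8, 79.7 and 84.5 TPM without it. Its log2 fold changes were -0.57 ± 0.14, -0.92 ± 0.14 and -0.62 ± 0.14 at 4, 48 and 72 h (adjusted p = 0.0024, 8.1e-06 and 0.00097). Nlrc5, the transactivator of MHC class I genes, had 30.9, 30.7, 31.97 and 29.8 TPM at 48 h with IL-25, against 73.9, 68.5, 55.8 and 65.5 TPM without it, a log2 fold change of -1.06 ± 0.19 (adjusted p = 4.2e-05). RefSeq annotation places Stat2 over Apof, and the sources used here do not say whether strand was used in counting, so reads of these neighbours cannot be separated here.

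Of the 6 ubiquitin-like and ADP-ribose modifiers, 5 were lower at 4 h, all 6 at 48 h and 4 at 72 h. Isg15, the ubiquitin-like protein that is attached to other proteins, was the one not called at 4 h, with 6.69, 8.19, 6.39 and 12.6 TPM at 4 h with IL-25, against 9.05, 6.29, 9.22 and 10.9 TPM without it. At 48 h Isg15 had 1.98, 3.71, 4.24 and 2.49 TPM with IL-25, against 9.45, 8.62, 8.71 and 6.63 TPM without, a log2 fold change of -1.21 ± 0.30 (adjusted p = 0.0013), and at 72 h the groups overlapped again, at 7.61, 13.02, 3.89 and 5.51 TPM with IL-25 and 5.94, 12.4, 14.4 and 5.51 TPM without. Neither group at 72 h was uniform, each holding libraries above 12 TPM and below 6 TPM. Usp18, which takes ISG15 off proteins and damps receptor signalling, was low in all IL-25 libraries, with 0.61, 0.81, 1.59 and 0.17 TPM at 4 h and 0.16, 0.15, 0.38 and 0.13 TPM at 48 h, against 7.52, 3.14, 2.59 and 3.68 TPM and 5.11, 6.64, 7.70 and 3.92 TPM without IL-25. It fell by 1.52, 2.48 and 2.11 on the log2 scale at 4, 48 and 72 h. Usp18 reached 1 TPM in 13 of the 24 culture libraries, and in no IL-25 library at 48 or 72 h. It thus passed the filter mainly through libraries without IL-25. No weight is put on its calls, though the counts include them.

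Parp9 and Dtx3l encode proteins that work as a complex, and their genes overlap on chromosome 16, so their reads may be shared. Parp9 had 12.6, 16.3, 16.4 and 14.8 TPM at 4 h with IL-25, against 34.03, 38.2, 34.6 and 30.7 TPM without it, and 29.3, 35.5, 38.1 and 28.3 TPM at 72 h with IL-25, against 33.97, 43.01, 34.9 and 43.3 TPM without. It was clearly separated at 4 h (log2 fold change -1.15 ± 0.13, adjusted p = 9.2e-08) and not called at 72 h (-0.24 ± 0.13, adjusted p = 0.13). Dtx3l had 5.26, 4.50, 5.56 and 4.03 TPM at 48 h with IL-25, against 17.4, 15.9, 16.7 and 17.2 TPM without it, and stayed lower at 72 h (-0.91 ± 0.13, adjusted p = 2.1e-06). Parp14, an ADP-ribosyl transferase, had 5.77, 2.49, 3.40 and 3.35 TPM at 48 h with IL-25, against 14.9, 13.9, 20.9 and 14.2 TPM without it, a log2 fold change of -1.86 ± 0.20 (adjusted p = 1.7e-08). Herc6, the ligase that attaches ISG15 in mice, fell by 1.35, 1.12 and 0.68 on the log2 scale at 4, 48 and 72 h.

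Nucleic acid sensors were lower for 4 of 5 genes at 4 h, 5 of 5 at 48 h and 3 of 5 at 72 h. Ddx58, which encodes the RNA sensor RIG-I, had 14.2, 11.4, 22.7 and 13.9 TPM at 4 h with IL-25, against 36.3, 45.4, 38.3 and 38.9 TPM without it. It had 12.3, 7.07, 7.14 and 5.96 TPM at 48 h with IL-25, against 35.6, 44.6, 53.2 and 39.3 TPM without it, without overlap at either time (log2 fold changes -1.34 ± 0.20 and -2.31 ± 0.20, adjusted p = 7.2e-06 and 4.8e-10). Zbp1, the sensor of Z-form nucleic acid, had 42.5, 44.05, 43.8 and 41.9 TPM at 48 h with IL-25, against 101, 101, 86.6 and 134 TPM without it, and 86.96, 93.4, 85.4 and 89.95 TPM at 72 h with IL-25, against 73.9, 159.5, 123 and 112 TPM without it. Its IL-25 libraries thus lay below the others at 48 h and among them at 72 h, with log2 fold changes of -1.26 ± 0.16 (adjusted p = 6e-07) and -0.34 ± 0.16 (adjusted p = 0.088). Ifih1, the gene of the sensor MDA5, stayed lower at all 3 times (-0.84, -1.13 and -0.82), and Dhx58, the gene of their relative LGP2, was lower at 48 h (-1.71 ± 0.28) and 72 h. Eif2ak2, the kinase that stops translation on double-stranded RNA, was called at 4 and 48 h with overlapping groups.

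The GTPases differed among themselves. At 4 h 5 of 8 were lower, at 48 h 6 and at 72 h 7, and none was higher. Tgtp1, an immunity-related GTPase, had 52.7, 50.6, 45.02 and 44.7 TPM at 4 h with IL-25, against 83.3, 81.7, 103 and 91.3 TPM without it. At 48 h it had 1.35, 3.94, 2.60 and 1.17 TPM with IL-25, against 162, 116, 109 and 139 TPM without, 58.1-fold lower by the means (log2 fold change -5.41 ± 0.23, adjusted p = 5.9e-16). At 72 h the values were 4.80, 6.06, 2.89 and 3.28 TPM with IL-25 and 143, 254, 124 and 129 TPM without. The groups did not overlap at any time, and the gap widened between 4 and 48 h. Its near-copy Tgtp2 moved the same way (48 h log2 fold change -3.90 ± 0.17), and how reads were divided between the copies is uncertain.

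Gbp2, a guanylate-binding protein, had 63.6, 94.8, 83.3 and 67.3 TPM at 4 h with IL-25, against 82.4, 86.2, 89.5 and 80.8 TPM without it, with no difference called (-0.15 ± 0.32, adjusted p = 0.75). Gbp2 fell by 48 h, to 11.2, 13.8, 9.42 and 6.07 TPM with IL-25, against 98.3, 107, 89.7 and 227 TPM without (log2 fold change -3.51 ± 0.32, adjusted p = 1.3e-09). Gbp7, in contrast, was already separated at 4 h, with 18.2, 22.5, 21.9 and 20.1 TPM at 4 h with IL-25, against 62.2, 64.1, 71.7 and 59.4 TPM without it (-1.59 ± 0.13, adjusted p = 3.6e-10). It had 9.96, 13.9, 11.8 and 10.3 TPM at 48 h with IL-25, against 67.7, 73.99, 82.9 and 74.2 TPM without it. Gbp3, from the same cluster, was called only at 4 h (-0.54 ± 0.20) and had 14.9, 14.6, 15.3 and 12.6 TPM at 48 h with IL-25, against 12.9, 16.96, 16.8 and 27.1 TPM without it. The 3 genes lie side by side on chromosome 3, Gbp7 at chr3:142530336-142550151, Gbp3 at chr3:142560016-142573213 and Gbp2 at chr3:142620663-142638008 (GRCm38.p6). Each gene has a promoter window that holds an ISRE core, though not every window of Gbp3 holds it.

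Irgm1, which controls the other immunity-related GTPases, had 37.7, 35.8, 39.8 and 40.6 TPM at 4 h with IL-25, against 75.9, 92.7, 82.7 and 74.3 TPM without it, and remained lower at 48 h (-1.54 ± 0.14) and 72 h (-1.49 ± 0.14). Ifi47 followed it with smaller changes (-0.73, -0.91 and -1.09). Igtp, a regulator of the same family, did not follow at 4 or 48 h. It had 109.9, 105, 98.9 and 101 TPM at 4 h with IL-25, against 88.4, 89.97, 91.5 and 81.6 TPM without it, and 97.7, 83.1, 103 and 95.1 TPM at 48 h with IL-25, against 114, 101, 104 and 110.3 TPM without it. Neither difference was called (adjusted p = 0.13 and 0.24), and at 72 h it was lower by 0.46 on the log2 scale (adjusted p = 0.0037), a time at which the highest library without IL-25, numbered 2, reached 189 TPM. Iigp1 was not called at 4 h, with 3.30, 7.86, 4.06 and 2.86 TPM at 4 h with IL-25, against 3.40, 4.59, 4.94 and 3.72 TPM without it. Iigp1 fell by 48 h, to 0.16, 0.54, 0.45 and 0 TPM with IL-25, against 15.7, 9.89, 4.46 and 10.04 TPM without (log2 fold change -3.01 ± 0.38, adjusted p = 3.4e-07). Iigp1 reached 1 TPM in 16 of the 24 culture libraries, and in no IL-25 library at 48 or 72 h. No weight is put on its calls, though the counts include them.

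**Figure D2:**
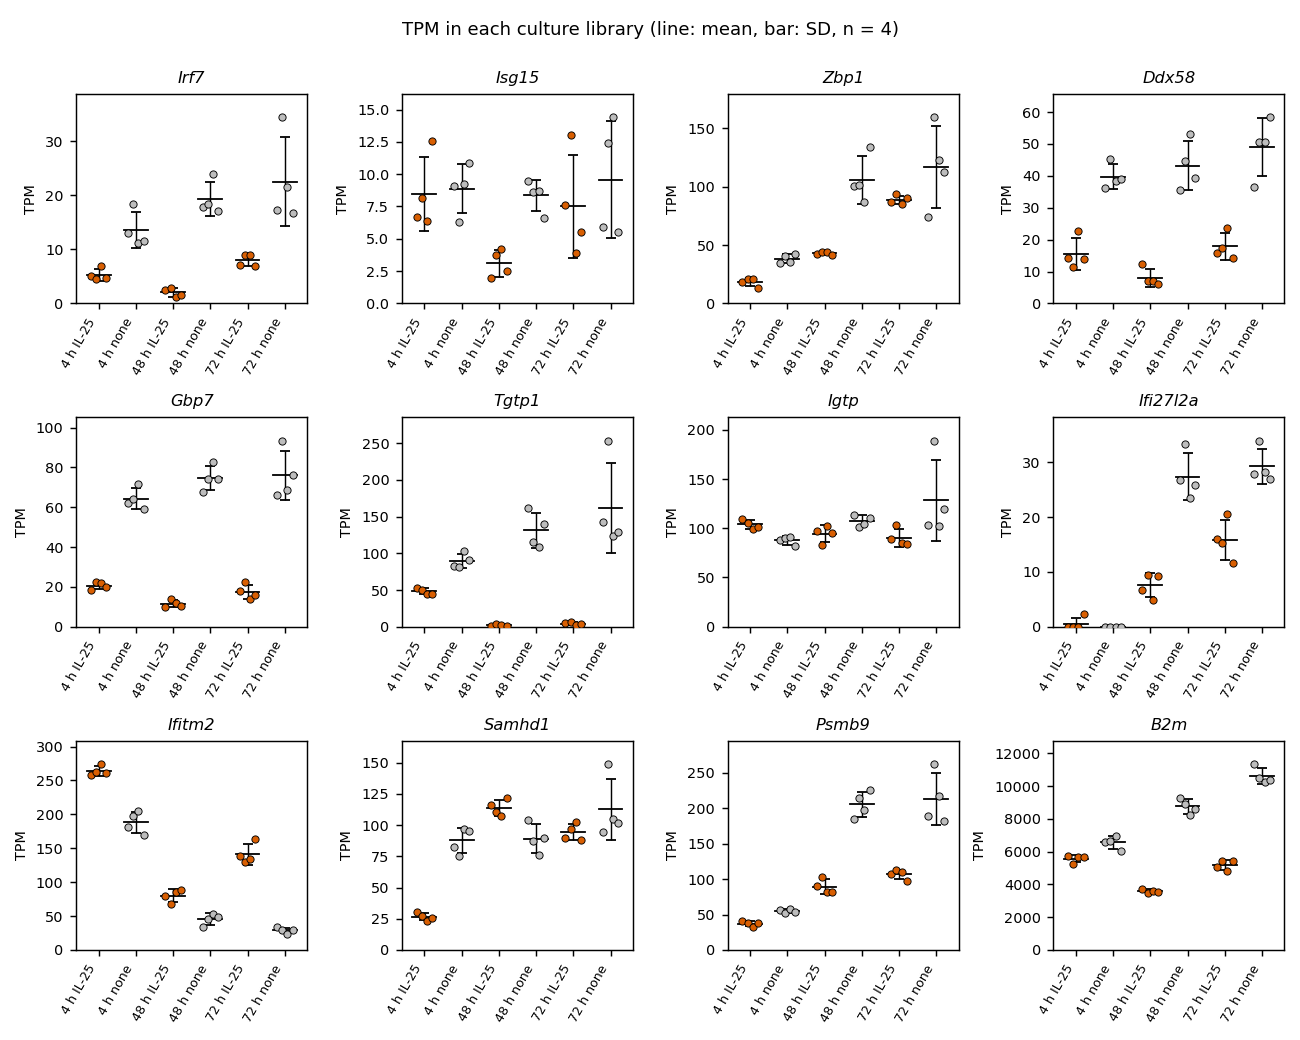
TPM (y axis, from 0) of 12 of the genes in each of the 24 culture libraries, by time and with or without IL-25 (x axis); points are libraries, lines are means and bars are SD (n = 4). Tgtp1 and Gbp7 stay low with IL-25 at 48 and 72 h, Igtp libraries with and without IL-25 lie close together, Ifitm2 is higher with IL-25 at every time, and Samhd1 is lower with IL-25 at 4 h and slightly higher at 48 h.

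The 16 membrane and effector genes held every gene that rose. At 4 h 11 were lower and 1 higher, at 48 h 9 and 4, and at 72 h 8 and 3. Ifitm2, one of a family that hinders virus entry, had 258, 263, 275 and 261 TPM at 4 h with IL-25, against 181, 197, 204 and 170.2 TPM without it. At 72 h it had 139, 129, 134 and 164 TPM with IL-25, against 33.5, 29.1, 24.1 and 28.9 TPM without, 4.89-fold higher by the means (log2 fold changes 0.49 ± 0.11 at 4 h and 2.25 ± 0.11 at 72 h, adjusted p = 0.0013 and 2e-14). Ifitm1 had 0, 1.39, 1.38 and 3.53 TPM at 4 h with IL-25, against 1.10, 0.50, 0.97 and 0.82 TPM without it. It had 152, 57.6, 82.4 and 81.01 TPM at 48 h with IL-25, against 0, 24.2, 0 and 0.78 TPM without it (5.09 ± 0.87, adjusted p = 2.4e-05). One library without IL-25 at 48 h, numbered 2, held 24.2 TPM, apart from the rest of its group. Ifitm1 reached 1 TPM in 15 of the 24 culture libraries, and in all 4 of a group only with IL-25 at 48 and 72 h. It thus passed the filter mainly through the groups where it was high. No weight is put on its calls, though the counts include them. Ifitm3 had 47.8, 55.5, 43.3 and 69.6 TPM at 72 h with IL-25, against 10.7, 23.96, 10.7 and 13.3 TPM without it (1.86 ± 0.23, adjusted p = 2.7e-07). The Ifitm genes are close copies, so the division of reads between them is uncertain, and they lie together on chromosome 7, Ifitm2 at chr7:140954837-140959686 and Ifitm3 at chr7:141009590-141010744, within one stretch with Irf7 at chr7:141263183-141266499, which moved the other way.

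Oasl2, a relative of the oligoadenylate synthetases, had 1.79, 1.06, 0.66 and 0.40 TPM at 4 h with IL-25, against 9.53, 20.3, 6.96 and 14.97 TPM without it, the largest fall of the 48 at 4 h (-2.77 ± 0.29). Oasl2 reached 1 TPM in 14 of the 24 culture libraries, and in no IL-25 library at 48 or 72 h. It too passed the filter mainly through libraries without IL-25. No weight is put on its calls, though the counts include them. Rtp4, a receptor chaperone induced by interferon, had 3.58, 4.13, 4.83 and 3.39 TPM at 4 h with IL-25, against 11.7, 11.7, 11.5 and 7.98 TPM without it. By 48 h Rtp4 had 0, 0, 0.41 and 0.32 TPM with IL-25, against 37.96, 26.9, 24.1 and 26.5 TPM without (-4.65 ± 0.27, adjusted p = 1.7e-13). Rtp4 overlaps Masp1 in the annotation. Ly6e, a membrane-anchored protein, was among the most abundant transcripts and had 1668, 1551, 1642 and 1692 TPM at 48 h with IL-25, against 4742, 4495, 5157 and 5098 TPM without it, 2.97-fold lower by the means (-1.57 ± 0.047, adjusted p = 5.2e-19). The groups did not overlap. Shisa5, Trim30a, Epsti1 and Ifi35 were lower at all 3 times, by 1.03, 1.76, 1.24 and 0.63 on the log2 scale at 48 h.

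Further effector genes differed in the times at which they were called lower. Samhd1, the enzyme that hydrolyses deoxynucleotides, had 30.3, 27.1, 23.2 and 25.8 TPM at 4 h with IL-25, against 82.8, 75.6, 96.7 and 95.7 TPM without it. At 48 h it had 116, 110.2, 107 and 122 TPM with IL-25, against 104, 87.1, 76.4 and 89.5 TPM without, so it was called lower at 4 h (-1.68 ± 0.12, adjusted p = 3.3e-11) and higher at 48 h (0.36 ± 0.12, adjusted p = 0.014). Sp100, a nuclear body protein, had 40.8, 32, 42.4 and 47.7 TPM at 4 h with IL-25, against 89.8, 95.1, 94.2 and 87.9 TPM without it (-1.17 ± 0.10), and was not called at 48 h (0.038 ± 0.10, adjusted p = 0.79). Lgals3bp, a secreted glycoprotein, fell by 0.36 at 4 h and was not called later, and Xaf1, a promoter of cell death, fell at 4 and 48 h (-1.37 and -0.65). Ifi27l2a, a small membrane protein, was listed at 0 in the 4 libraries without IL-25 at 4 h and in 3 of the 4 with it, and had 6.64, 9.48, 4.93 and 9.22 TPM at 48 h with IL-25, against 26.8, 33.4, 23.5 and 25.8 TPM without it (-1.75 ± 0.27, adjusted p = 7e-06). It overlaps Ifi27 in the annotation. Bst2 had 131, 128, 126 and 142 TPM at 48 h with IL-25, against 132, 137, 125 and 167 TPM without it (adjusted p = 0.57).

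Of the 8 antigen processing genes, 6 were lower at 4 h, by at most 0.55 on the log2 scale, and all 8 at 48 and 72 h. B2m, the light chain of MHC class I and the most abundant of the 48 transcripts, had 5759, 5243, 5654 and 5649 TPM at 4 h with IL-25, against 6611, 6646, 6949.5 and 6042 TPM without it. At 48 h it had 3747, 3500.4, 3598 and 3526 TPM with IL-25, against 9274, 8905, 8262 and 8585 TPM without, 2.44-fold lower by the means (log2 fold changes -0.23 ± 0.05 and -1.28 ± 0.05, adjusted p = 0.00048 and 7.9e-17). No library crossed between the groups. H2-K1, a classical heavy chain, had 1464, 1271, 1627 and 1326 TPM at 48 h with IL-25, against 3946, 3952, 4569 and 4358 TPM without it, 2.96-fold lower (-1.57 ± 0.07, adjusted p = 1.5e-15), and H2-D1 fell by 1.11 on the log2 scale. Reads of H2-K1, H2-D1 and the related H2-Q genes can be split between copies, so the value of any one is uncertain.

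Among the immunoproteasome subunits, which replace the standard catalytic sites and change the peptides made, Psmb9 had 40.5, 38.8, 31.8 and 37.6 TPM at 4 h with IL-25, against 56.5, 52.3, 57.5 and 53.03 TPM without it. At 48 h it had 90.6, 104, 82.2 and 81.6 TPM with IL-25, against 185, 215, 198 and 225 TPM without (-1.20 ± 0.10, adjusted p = 3.5e-10). Psmb9 was thus higher at 48 h than at 4 h in either medium, and lower with IL-25 at both. Psmb8 had 623, 638, 618 and 667 TPM at 48 h with IL-25, against 998, 940.0, 889 and 1080.1 TPM without it (-0.61 ± 0.07), and Psmb10 was not called at 4 h (-0.22 ± 0.11, adjusted p = 0.12) and fell by 1.09 on the log2 scale at 72 h. Of the paired peptide transporter genes, Tap1 was not called at 4 h (0.048 ± 0.099, adjusted p = 0.74) and had 82.7, 73.8, 72.8 and 73.5 TPM at 48 h with IL-25, against 129.7, 141, 155 and 141 TPM without it. Tap2 fell at each time (-0.29, -0.77 and -0.41). Psmb9, Tap1, Psmb8 and Tap2 lie together between 34182030 and 34216321 on chromosome 17, with H2-K1 at chr17:33996012-34000619.

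The effect of IL-25 itself changed with time. Between 4 and 48 h it moved downward in 24 genes, where 10.7% of all genes did, and upward in 4, where 17.2% of all did. The downward group was led by Tgtp1 (-4.53 ± 0.33), Rtp4 (-3.43 ± 0.38), Gbp2 (-3.36 ± 0.45) and Iigp1 (-3.04 ± 0.54), and the upward group was Ifitm1, Samhd1, Sp100 and Ifitm3. Rtp4 and Iigp1 were under 1 TPM in every IL-25 library at 48 h. Ifitm1 passed the filter mainly through IL-25 libraries at 48 and 72 h. No weight is put on the calls of Iigp1 and Ifitm1. Irf7 changed by -1.57 ± 0.30 (adjusted p = 0.00023) and H2-K1 by -1.30 ± 0.099 (adjusted p = 1.7e-10). Between 48 and 72 h the effect moved upward in 12 genes (background 5.22%) and downward in 1, Samhd1 (background 9.50%). The upward group was led by Irf7 (1.44 ± 0.30, adjusted p = 0.0015), Ifitm2 (1.43 ± 0.16), Parp14 (1.01 ± 0.28), Zbp1 (0.92 ± 0.23) and Ddx58 (0.90 ± 0.28). B2m (0.25 ± 0.07) and Ddx58 were no longer called when both 72 h libraries numbered 2 were left out (adjusted p = 0.06 and 0.063), and 11 genes were then called upward. Without the 48 h IL-25 library numbered 1, 2 genes were called downward. Both changes use the 48 h libraries. Over all genes, 35.5% of the genes called between 48 and 72 h had moved upward, and 58.8% under the median of ratios.

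Culture time without IL-25 gave a mixed picture. From 4 to 48 h 17 of 48 genes were higher at 48 h, where 19.9% of all genes were, and 9 lower, where 44.5% were. The median over all genes was -0.28 on the log2 scale there. Scaling by the median of ratios moved that median to 0.0070, the counts to 30 higher and 4 lower, and the share of called genes that were higher, over all genes, to 51.7% against 30.8%. Ifi27l2a changed most, with 26.8, 33.4, 23.5 and 25.8 TPM at 48 h, against 0 TPM in each library at 4 h. Psmb9 stood at 185, 215, 198 and 225 TPM at 48 h, against 56.5, 52.3, 57.5 and 53.03 TPM at 4 h (1.89 ± 0.10, adjusted p = 3.9e-14), and Zbp1 at 101, 101, 86.6 and 134 TPM, against 34.5, 40.9, 35.8 and 42.4 TPM (1.42 ± 0.16). Ifitm2 moved the other way, with 33.8, 45.7, 53.4 and 48.8 TPM at 48 h, against 181, 197, 204 and 170.2 TPM at 4 h (-2.04 ± 0.11, adjusted p = 8.9e-14). From 48 to 72 h without IL-25 little moved: B2m, H2-D1 and Shisa5 were higher (background 0.284%) and Ifitm2 was lower (background 0.0948%). Without the 48 h library numbered 2, or the 72 h library numbered 2 or 4, only 1 was called higher, and Ifitm2 was no longer called without the 48 h library numbered 2 or the 72 h library numbered 3. Under the median of ratios none of the 48 was called higher, and 31.9% of all called genes were higher against 75.0%.

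With IL-25 the same interval from 4 to 48 h took 27 genes lower (background 44.5%) and 12 higher (background 27.6%). Gbp2 had 11.2, 13.8, 9.42 and 6.07 TPM at 48 h, against 63.6, 94.8, 83.3 and 67.3 TPM at 4 h (-2.85 ± 0.32, adjusted p = 2.1e-08), and H2-K1 fell by 1.43 on the log2 scale. Samhd1 rose, with 116, 110.2, 107 and 122 TPM at 48 h, against 30.3, 27.1, 23.2 and 25.8 TPM at 4 h (2.06 ± 0.12). From 48 to 72 h with IL-25, 26 genes were higher (background 13.4%) and 1, Ifi35, lower (background 17.9%), a call lost without the 48 h library numbered 3 or 4 or the 72 h library numbered 2. Irf7 had 7.12, 9.0, 9.03 and 7.0 TPM at 72 h, against 2.54, 2.85, 1.23 and 1.53 TPM at 48 h (1.60 ± 0.21, adjusted p = 1.8e-06), and Ddx58 had 15.9, 17.4, 23.7 and 14.3 TPM, against 12.3, 7.07, 7.14 and 5.96 TPM (1.07 ± 0.20). Tgtp1 rose too, by 0.73 on the log2 scale, to levels still far below those without IL-25. Under the median of ratios the share of called genes that were higher, over all genes, was 50.9% against 38.3% from 4 to 48 h and 53.2% against 42.9% from 48 to 72 h.

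The rest of the pathway was followed in 6 further lists, to be read against the 26.9%, 28.7% and 33.2% of all genes that were lower with IL-25 at 4, 48 and 72 h and the 13.4%, 21.4% and 15.3% that were higher. Of 14 tested interferon receptor and signalling genes, 5, 10 and 9 were lower with IL-25 at 4, 48 and 72 h, and 3, 1 and 2 were higher. Ifngr1, a chain of the interferon gamma receptor, was lower at 4 h, with 78.5, 83.01, 69.97 and 80.3 TPM at 4 h with IL-25, against 242, 188, 229 and 240.1 TPM without it (-1.51 ± 0.087), while Ifngr2, its partner chain, averaged 9.15 TPM with IL-25 and 51.1 TPM without at 48 h. Of 44 tested further interferon-stimulated genes, 34, 37 and 35 were lower and 2, 1 and 0 higher at the 3 times, with medians of -0.73, -1.48 and -1.02. Cxcl10, a chemokine gene, was 1 of the pair that rose at 4 h, averaging 13.9 TPM with IL-25 and 5.08 TPM without. All 9 further GTPases of the same families were lower at 48 and 72 h, after 5 at 4 h. Of 18 further MHC class I genes 8, 14 and 13 were lower and 1, 2 and 2 higher, and of 11 MHC class II genes 3, 7 and 6 were lower and 0, 1 and 2 higher, at 4 h a share close to that of all genes. H2-Ab1 rose at 72 h, averaging 36.8 TPM with IL-25 and 9.68 TPM without, while Cd74, the invariant chain, averaged 3.56 TPM with IL-25 and 25.5 TPM without. Of 6 adaptors of nucleic acid sensing, 0, 3 and 3 were lower and 1, 0 and 0 higher.

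Other transcripts moved with IL-25 too. The listed haemoglobin genes Hba-a1 and Hba-a2 summed to 5.60 to 9.37 TPM with IL-25 and 60.5 to 82.5 TPM without it at 4 h, to 8.71 to 19.4 TPM and 479 to 553 TPM at 48 h, and to 8.71 to 20.9 TPM and 633 to 798 TPM at 72 h. The 4 further red cell precursor markers were not analysed here. The listed T cell markers (3 of 10) summed to 72.7 to 97.7 TPM with IL-25 and 44.3 to 49.1 TPM without at 4 h, to 25.8 to 30.3 TPM and 83.1 to 132 TPM at 48 h, and to 31.1 to 43.8 TPM and 98.9 to 118 TPM at 72 h. Macrophage and dendritic cell markers (4 of 8) summed to 15.2 to 19.9 TPM with IL-25 and 33.5 to 54.6 TPM without at 48 h, and overlapped at 4 and 72 h. Epithelial markers (2 of 6) summed to 35.1 to 40.5 TPM with IL-25 and 95.9 to 113 TPM without at 48 h, and were lower without overlap at 4 and 72 h also. The B cell marker Cd79b (the only one of 6 listed) averaged 15.8, 83.7 and 142 TPM with IL-25 at 4, 48 and 72 h, against 28.3, 45.7 and 43.1 TPM without it. The 10 ILC2 markers summed to 3751 to 4288 TPM with IL-25 and 2615 to 2925 TPM without at 48 h, but the 9 without Il5, a type 2 cytokine, to 1802 to 1955 TPM with IL-25 and 2424 to 2756 TPM without. Il5 averaged 2101 TPM with IL-25 and 187 TPM without at 48 h, while Gata3 (-1.29), Il7r (-1.45), Il17rb (-2.72), Rora (-2.27) and Id2 (-1.26) were lower on the log2 scale. At 4 and 72 h the sums of the 9 overlapped. They were 2050 to 2359 TPM with IL-25 and 2210 to 2398 TPM without at 4 h. At 72 h they were 2892 to 3003 TPM with IL-25 and 2711 to 3076 TPM without. The part of these markers in the changes above was not tested.

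In the second experiment the targeted gene was checked first. Rxrg had 2.58, 1.76, 1.27 and 3.12 TPM in nILC2 KO libraries, against 12.3, 17.4, 12.2 and 18.4 TPM in nILC2 CTRL libraries (-2.35 ± 0.21, adjusted p = 1.2e-05). It had 0.26, 0.48, 0 and 0.38 TPM in iILC2 KO libraries, against 1.72, 1.83, 1.26 and 1.68 TPM in iILC2 CTRL libraries (-1.04 ± 0.21), without overlap and not called (adjusted p = 0.44).

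Between KO and CTRL nILC2, H2-K1 was the only one of the 46 genes called, lower in KO, where 0.596% of all genes were lower, and none was higher (0.943% over all genes). At an unadjusted p under 0.05, 9 were lower, where 8.19% of all genes were, and 3 higher, where 11.1% were. Other settings moved the count, to 8 lower with array weights, 4 under quantile normalization and 11 without nILC2 KO replicate 1. Of all called genes 61.3% were higher in KO, and 75.0% under the median of ratios. H2-K1 had 2476, 1853, 1564 and 1853 TPM in nILC2 KO libraries, against 2562, 2526, 2699.6 and 2832 TPM in nILC2 CTRL libraries (-0.47 ± 0.095, adjusted p = 0.025). The groups did not overlap, but the call was lost when only these 8 libraries were fitted (adjusted p = 0.19) and over all alternatives the adjusted p ran from 0.00016 to 0.19. It was also lost, with 0 genes then lower, without CTRL library 3 or 4 (adjusted p = 0.053 and 0.088) or KO library 2, 3 or 4 (adjusted p = 0.08, 0.08 and 0.061). B2m had 5173, 3695, 3195 and 3620.2 TPM in nILC2 KO libraries, against 4844, 4789.9, 4814 and 5100.0 TPM in nILC2 CTRL libraries (-0.34 ± 0.099, adjusted p = 0.077), and Gbp7 had 77.1, 50.6, 41.8 and 50.8 TPM in nILC2 KO libraries, against 87.4, 70.7, 72.8 and 91.3 TPM in nILC2 CTRL libraries (-0.57 ± 0.16, adjusted p = 0.075). In both genes 3 KO libraries lay below every CTRL library and the KO library numbered 1 lay among or above them. Irf7 (0.11 ± 0.25), Irf1 (-0.17 ± 0.085), Stat2 (-0.055 ± 0.15) and Nlrc5 (-0.58 ± 0.27) were not called. Markers differed as well. The 10 ILC2 markers summed to 1753 to 2400.1 TPM in nILC2 KO libraries and 2415 to 2744 TPM in nILC2 CTRL libraries, with Gata3 (-0.37, adjusted p = 0.038), Il17rb (-0.45, adjusted p = 0.034) and Id2 (-0.55, adjusted p = 0.029) lower. Of markers of other cells, Fcer1g, an Fc receptor chain of myeloid cells, was higher (1.49, adjusted p = 0.0091) and the epithelial gene Epcam lower (9.96 TPM in KO and 20.8 TPM in CTRL by the means, adjusted p = 0.041). The 4 listed macrophage and dendritic cell markers, Fcer1g among them, summed to 157 to 211 TPM in KO and 166 to 370.1 TPM in CTRL. Their mean sum was lower in KO, at 182 TPM against 234 TPM. The part of all these markers in the H2-K1 difference was not tested.

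Without nILC2 KO replicate 1, 11 genes were lower in nILC2 KO, where 3.62% of all genes were then lower, and none higher, where 6.36% of all genes were. The 11 were Gbp2, Gbp7, Tgtp1 and Ifi47 among the GTPases, Ddx58, Samhd1, Shisa5 and Ly6e, and the antigen processing genes B2m, H2-K1 and H2-D1. Tgtp1 had 72.95, 36.3, 35.7 and 44.8 TPM in nILC2 KO libraries, against 105, 80.2, 94.5 and 65.03 TPM in nILC2 CTRL libraries, and its log2 fold change was -1.11 ± 0.23 (adjusted p = 0.0076) without the library and -0.89 ± 0.25 (adjusted p = 0.072) with it. B2m reached -0.48 ± 0.06 (adjusted p = 0.00041) without it. Ddx58 had 34.8, 24.6, 20.7 and 16.4 TPM in nILC2 KO libraries, against 35.9, 30.4, 37.4 and 32.9 TPM in nILC2 CTRL libraries, and -0.72 ± 0.14 without the library (adjusted p = 0.005). Leaving out any other single library left 0 to 2 genes lower, the 2 without CTRL library 2, when 1 was also higher. The library left out was chosen after its values were seen.

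In iILC2 no member was called between KO and CTRL in limma, as for all genes (0% higher and 0% lower), and at an unadjusted p under 0.05, 2 were higher and 0 lower, where 1.65% and 1.61% of all genes were. H2-K1 had 658, 605, 603 and 593 TPM in iILC2 KO libraries, against 683, 609, 647 and 649 TPM in iILC2 CTRL libraries, and B2m 2759.6, 2499, 2484 and 2403 TPM in iILC2 KO libraries, against 2662, 2436, 2649 and 2407 TPM in iILC2 CTRL libraries. The genotypes overlapped in both. Their log2 fold changes were -0.074 ± 0.095 and -0.0017 ± 0.099 (adjusted p = 1 and 1). The test of the difference between the KO effects in iILC2 and nILC2 called 0 of 46 genes in limma (0% higher and 0% lower over all genes), with 8 higher and 0 lower at an unadjusted p under 0.05, where 4.54% and 5.98% of all genes were. Without nILC2 KO replicate 1 it called 6 as higher in iILC2 (Gbp7, Ifi47, Ddx58, B2m, H2-K1 and H2-D1), where 0.517% of all genes were, with H2-K1 at 0.52 ± 0.09 (adjusted p = 0.018). The median over the 46 genes was -0.13 for KO in nILC2 and 0.02 in iILC2.

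**Figure D3:**
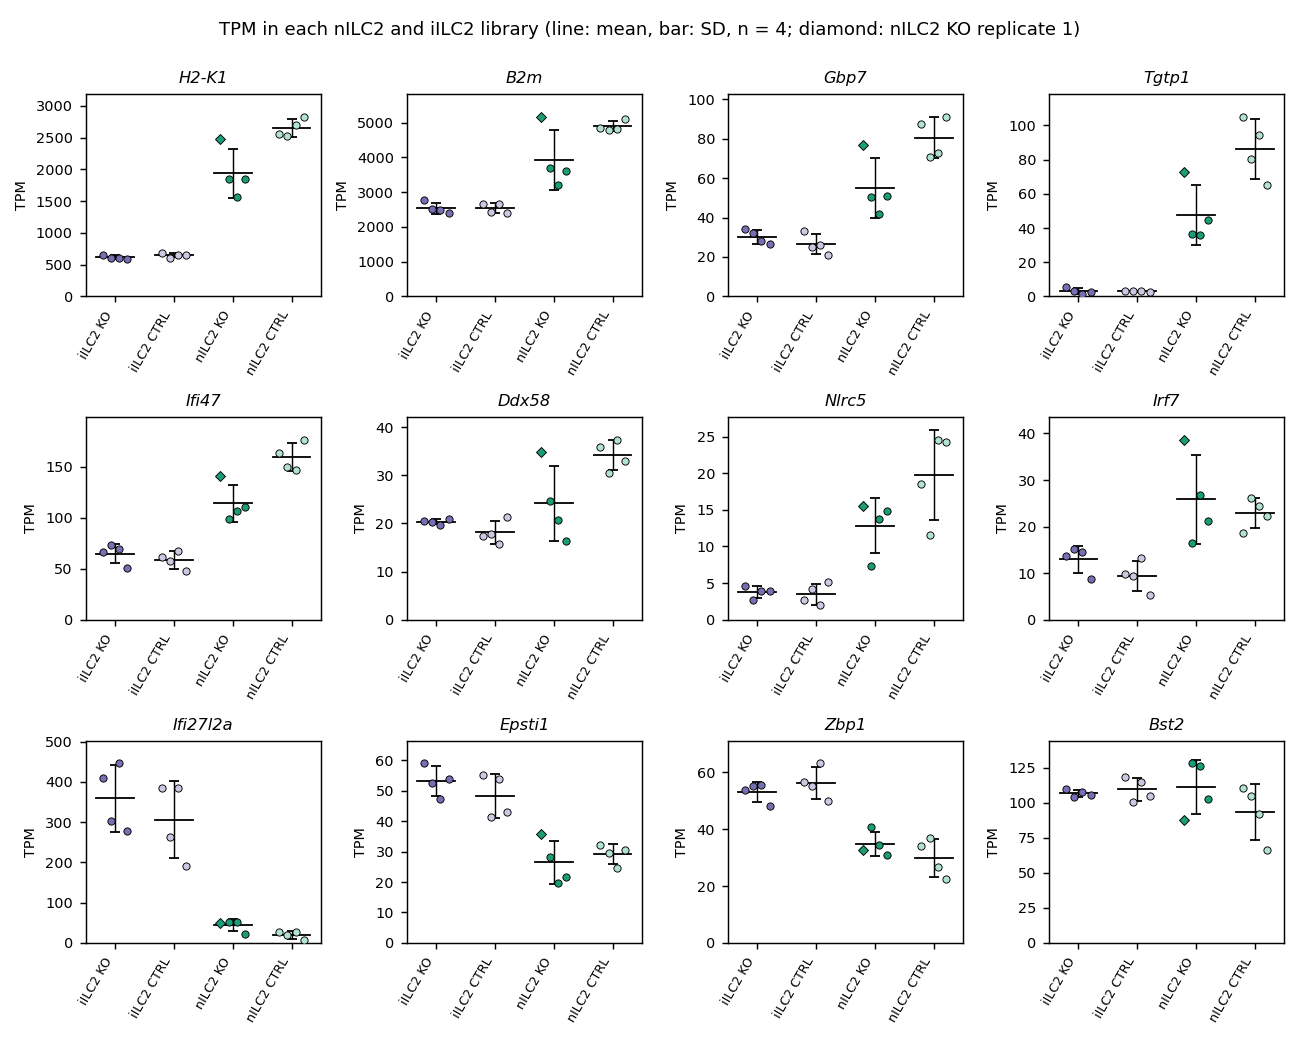
TPM (y axis, from 0) of 12 of the genes in each of the 16 nILC2 and iILC2 libraries (x axis: iILC2 KO, iILC2 CTRL, nILC2 KO, nILC2 CTRL); points are libraries, lines are means, bars are SD (n = 4) and the diamond is nILC2 KO replicate 1. The diamond is the top KO point in H2-K1, B2m, Gbp7, Tgtp1, Ifi47, Ddx58, Nlrc5, Irf7 and Epsti1, and Ifi27l2a is far higher in iILC2 than in nILC2.

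More of these genes were lower than higher in iILC2 against nILC2 in both genotypes, and 22 in CTRL and 26 in KO were not called. In CTRL 21 of 46 genes were lower in iILC2, where 23.6% of all genes were, and 3 higher, where 21.9% were. In KO 17 were lower (background 17.6%) and 3 higher (background 13.8%), and 5 were higher without nILC2 KO replicate 1. The CTRL median was -0.48 on the log2 scale, against -0.03 over all 10069 genes tested, and the KO median was -0.27, against -0.04. These comparisons share their libraries with the KO comparisons above, and the difference between the genotypes is the same contrast as the difference of the KO effects, in which none of the 46 was called.

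Of the 8 GTPases 7 were lower in each genotype. Of these Iigp1 reached 1 TPM in 8 of 16 libraries, among them all 4 nILC2 CTRL libraries and none of iILC2 KO, so it passed the filter mainly through nILC2 and no weight is put on its calls. Tgtp1 had 3.13, 2.86, 3.22 and 2.59 TPM in iILC2 CTRL libraries, against 105, 80.2, 94.5 and 65.03 TPM in nILC2 CTRL libraries, 29.2-fold lower by the means (-4.45 ± 0.25, adjusted p = 1.3e-10), and in KO -3.53. Gbp2 had 18.4, 14.8, 16.4 and 11.9 TPM in iILC2 CTRL libraries, against 66.6, 54.5, 49.2 and 55.01 TPM in nILC2 CTRL libraries (-1.82 ± 0.20, adjusted p = 7.2e-07). Gbp3 was the one not called (0.053 ± 0.17 in CTRL). Igtp, which in culture was called at 72 h alone, was among them (-0.68 ± 0.17 in CTRL and -0.50 ± 0.17 in KO).

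Of the regulators, Nlrc5 had 2.62, 4.15, 1.94 and 5.12 TPM in iILC2 CTRL libraries, against 18.6, 11.5, 24.6 and 24.3 TPM in nILC2 CTRL libraries, 5.71-fold lower by the means (-2.22 ± 0.27, adjusted p = 3e-06), and Irf7 had 9.85, 9.32, 13.2 and 5.20 TPM in iILC2 CTRL libraries, against 18.7, 26.2, 24.4 and 22.3 TPM in nILC2 CTRL libraries (-1.25 ± 0.25, adjusted p = 0.00048). No library crossed between the groups in either gene. Irf9 was lower in CTRL (-0.53 ± 0.18), and Irf1 (-0.21 ± 0.085, adjusted p = 0.054) and Stat2 (-0.29 ± 0.15, adjusted p = 0.13) were not called. Usp18 was lower in both genotypes (-1.69 and -1.32), Parp14 in CTRL (-0.69), and Ddx58 was called lower in CTRL alone (-0.88 in CTRL and -0.18 in KO).

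H2-K1 had 683, 609, 647 and 649 TPM in iILC2 CTRL libraries, against 2562, 2526, 2699.6 and 2832 TPM in nILC2 CTRL libraries, 4.10-fold lower (-2.03 ± 0.095, adjusted p = 2.2e-11). In KO the values were 658, 605, 603 and 593 TPM in iILC2 and 2476, 1853, 1564 and 1853 TPM in nILC2 (-1.64 ± 0.095, adjusted p = 7.6e-10). B2m (-0.95 ± 0.099 in CTRL), H2-D1 (-1.03 ± 0.079) and Tap1 (-0.55 ± 0.13) were lower too. The immunoproteasome subunits were not called: Psmb8 had 470.3, 445, 497 and 462 TPM in iILC2 CTRL libraries, against 483, 526, 471 and 486 TPM in nILC2 CTRL libraries, Psmb9 differed by 0.12 ± 0.088 and Psmb10 by -0.068 ± 0.076. Tap2 was not called either (-0.12 ± 0.084), so 4 of the 8 antigen processing genes were lower in each genotype.

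The 3 genes higher in iILC2 were the same in both genotypes. Ifi27l2a had 385, 264, 385 and 191 TPM in iILC2 CTRL libraries, against 26.8, 19.1, 26.2 and 7.26 TPM in nILC2 CTRL libraries, 15.4-fold higher by the means (3.97 ± 0.34, adjusted p = 3.3e-08), and in KO 409, 302, 447 and 277 TPM in iILC2 and 49.6, 52.2, 53.1 and 23.2 TPM in nILC2. Ifi27, which it overlaps, averaged 28.6 TPM in iILC2 KO and 91.7 TPM in nILC2 KO. Zbp1 had 56.5, 55.3, 63.3 and 49.8 TPM in iILC2 CTRL libraries, against 34.05, 36.9, 26.6 and 22.5 TPM in nILC2 CTRL libraries (0.90 ± 0.13, adjusted p = 2.4e-05), and Epsti1 had 55.1, 41.3, 53.8 and 43.02 TPM in iILC2 CTRL libraries, against 32.2, 29.4, 24.7 and 30.5 TPM in nILC2 CTRL libraries (0.70 ± 0.15, adjusted p = 0.0011). Neither gene overlapped between the groups. Rtp4 was lower, with 3.12, 2.7, 6.05 and 2.28 TPM in iILC2 CTRL libraries, against 27.5, 20.3, 20.4 and 20.9 TPM in nILC2 CTRL libraries (-2.41 ± 0.35), and Ly6e (-0.60 ± 0.081), Shisa5 (-0.32 ± 0.085) and Ifi35 (-0.55 ± 0.12) were lower by less.

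**Figure D4:**
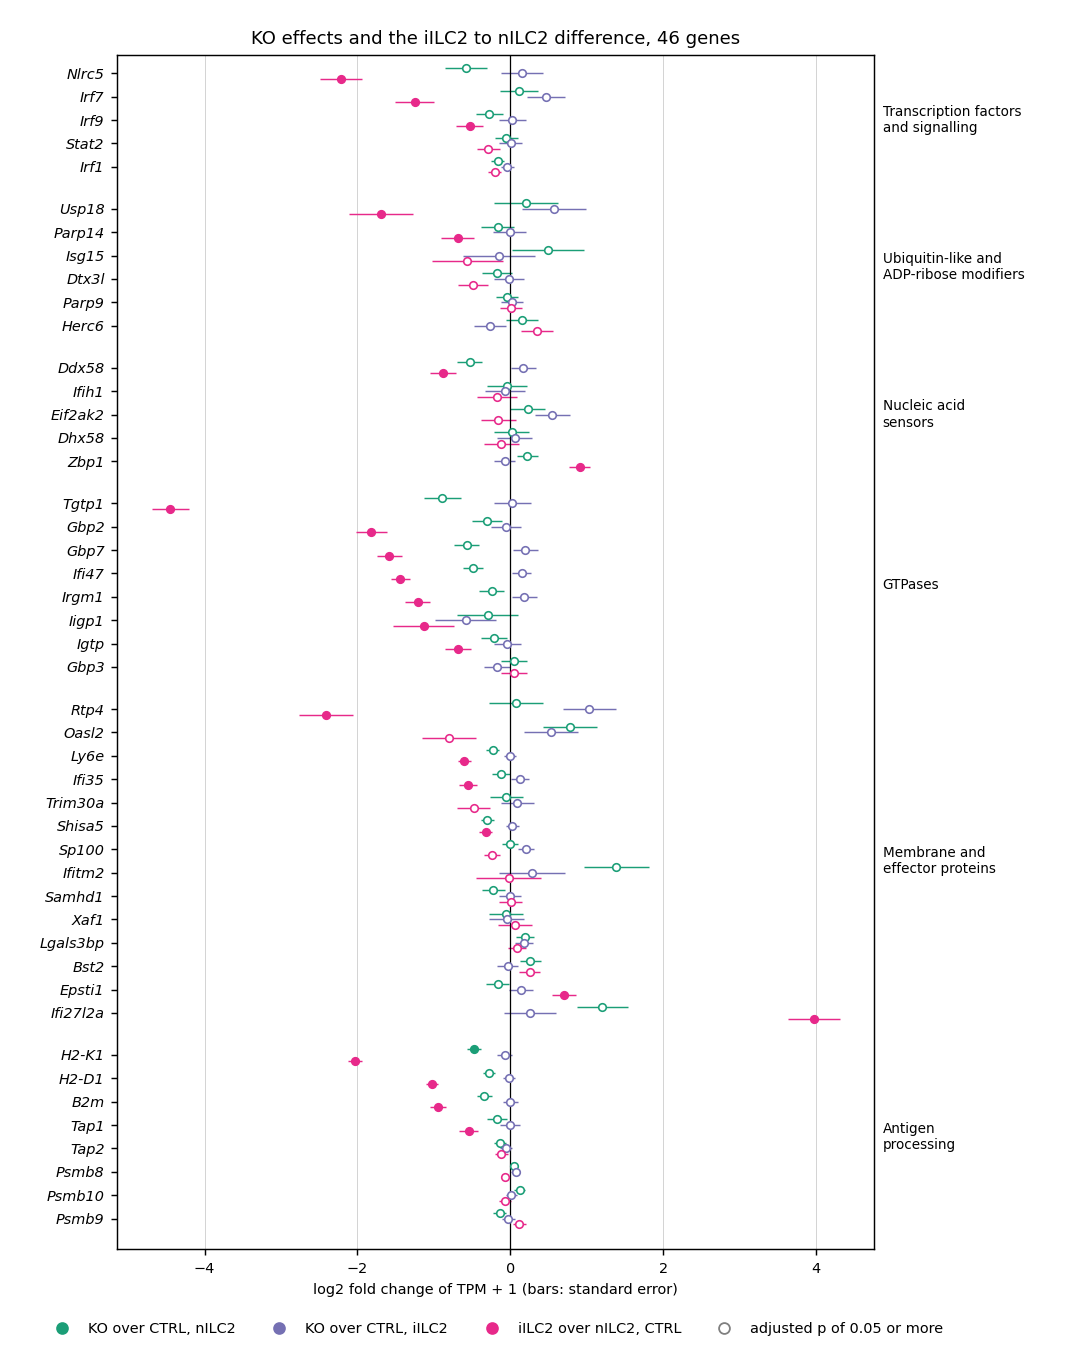
Log2 fold change of TPM + 1 (x axis, bars are standard errors) for 46 genes (y axis) by role, for KO over CTRL in nILC2 and in iILC2 and for iILC2 over nILC2 in CTRL; filled points passed an adjusted p of 0.05. The KO points sit near 0 with H2-K1 in nILC2 as the one filled among them, while the iILC2 points reach -4.45 for Tgtp1 and 3.97 for Ifi27l2a.

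The other pathway lists were counted in the same way, against 23.6% of all genes lower and 21.9% higher in iILC2 CTRL. In CTRL iILC2 9 of 13 interferon receptor and signalling genes were lower and 1 higher, 8 of 9 further GTPases and 9 of 18 further MHC class I genes were lower, with 0 and 4 higher, and 16 of 47 further interferon-stimulated genes were lower and 11 higher, the last close to the share of all genes. Of 12 MHC class II genes 7 were lower and 0 higher, and of 6 sensing adaptors 2 were lower and 2 higher. Irf5, a transcription factor of the interferon pathway, averaged 3.51 TPM in iILC2 CTRL and 29.3 TPM in nILC2 CTRL, and Socs1, the inhibitor of JAK kinases, 1.66 TPM and 16.8 TPM. Ms4a4b went the other way, averaging 432 TPM in iILC2 CTRL and 72.9 TPM in nILC2 CTRL. For KO in nILC2, 1 of 9 further GTPases (Gbp8) and 1 of 18 further MHC class I genes (H2-Q7) were lower, and 2 of 47 further interferon-stimulated genes (Cmpk2 and Phf11b) were higher (background 0.596% lower and 0.943% higher). The 10 ILC2 markers summed to 1063 to 1134 TPM in iILC2 CTRL and 2415 to 2744 TPM in nILC2 CTRL. In the same order the listed macrophage and dendritic cell markers summed to 82.7 to 180.4 TPM and 166 to 370.1 TPM. The listed T cell markers summed to 7.26 to 25.1 TPM and 49.3 to 83.3 TPM. The mast cell marker Kit and the listed epithelial markers were also lower in iILC2 CTRL without overlap. The B cell marker Cd79b went the other way, at 238 to 282 TPM in iILC2 CTRL and 117 to 154 TPM in nILC2 CTRL. Klrk1, a marker of ILC1 and NK cells, overlapped, at 1.26 to 4.67 TPM and 0 to 3.21 TPM. Their part in these differences was not tested.

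IL-25 in culture and the iILC2 to nILC2 difference come from separate tables with no library in common, fitted separately. Of 39 genes lower with IL-25 at 48 h and listed in both tables, 20 (51.3%) were lower in iILC2 CTRL, and these 20 were 95.2% of the 21 lower there, where 84.8% of the 46 were lower with IL-25 at 48 h to begin with. The one left was Igtp. At 72 h all 21 were among the 35 lower with IL-25 (76.1% of the 46). Over all genes tested in both tables, 42.0% of those lower with IL-25 at 48 h were lower in iILC2 CTRL, and 52.7% of those lower in iILC2 CTRL were lower with IL-25 at 48 h, as were 55.0% at 72 h. Ifi27l2a, Zbp1 and Epsti1 had opposite calls, lower with IL-25 at 48 h and higher in iILC2. Tgtp1 stood farthest out in both, at -5.41 for IL-25 at 48 h and -4.45 for iILC2 CTRL. Rtp4 was at -4.65 and -2.41, and Nlrc5, with -1.06 and -2.22, was the gene whose iILC2 difference most exceeded its culture effect among the regulators. The values are set side by side as a description, and no test was made of their likeness.

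**Figure D5:**
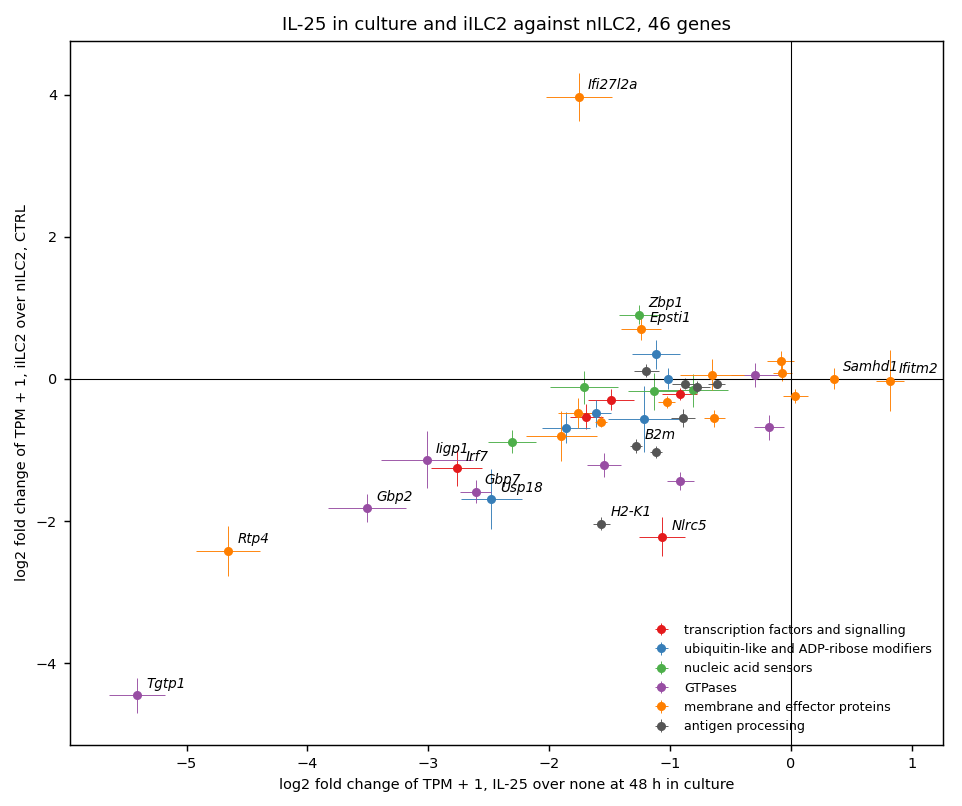
Log2 fold change of TPM + 1 with IL-25 at 48 h in culture (x axis) against that of iILC2 over nILC2 in CTRL (y axis) for 46 genes, coloured by role, with standard errors as bars. Tgtp1 and Rtp4 lie at the lower left, and Ifi27l2a, Zbp1 and Epsti1 lie above 0 on the y axis while left of 0 on the x axis.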

How the data were processed

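RNA of 40 libraries was analysed, 24 from culture and 16 from nILC2 and iILC2. The authors deposited TPM values per gene in 2 tables, one for each experiment. Per the submitters' processing notes the tools included cutadapt 2.10, STAR 2.7.5c and RSEM 1.3.3 with the mm10 build, without stating their roles. TPM is scaled by transcript length and to a fixed sum, so a few abundant transcripts can shift all others, and read depth is not kept. Libraries of accessible chromatin and CUT&Tag were not analysed here.

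Each table was fitted apart, on log2(TPM + 1), for genes at 1 TPM or more in at least 4 libraries, with limma 3.58.1 in R 4.3.3: 1 mean per group, all groups of a table sharing the variance, empirical Bayes with an intensity trend, and Benjamini-Hochberg adjustment over all genes tested. Fold changes on this scale understate those of low genes. The fit was tested on simulated data. The members and lists were chosen with earlier results of these data known. Library values are given for 2 called members a role with the largest changes at 10 TPM or more, and for Irf7, Irf1, Nlrc5, B2m, H2-K1 and Stat2. Those of further members were chosen after their values were seen. Of other lists up to 4 genes with the largest called changes could be named. Alternatives were another pseudocount, filters, 2 other scalings, the compared groups alone, array weights, a replicate block, a term for Y-linked expression and leaving out libraries. Same-numbered nILC2 KO and iILC2 KO libraries deviated together (correlations 0.188, 0.102, 0.231 and 0.145). For nILC2 CTRL and iILC2 CTRL the correlations were 0.253, 0.153, 0.133 and 0.049. The main fit holds no term for such pairs. In the comparisons of iILC2 with nILC2 the block changed no call count by over 1.5 times. Promoter sequences came from RefSeq, GRCm38.p6.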

Additional observations from a re-analysis of the deposited data

Results flagged for a closer look

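A library was singled out where its gap to the nearest of the other 3 libraries of its group took up more of the range of the group than Dixon's 95% value for 4 samples allows. Of 316 groups of 4 looked at, 23 (7.28%) met this, where chance gives about 1 in 20. At 4 h with IL-25, the mean log2(TPM + 1) over the 48 genes was 4.96 in library 1, against 5.03 to 5.04 in the others, and Ifi27l2a had 2.23 TPM in library 4, against 0 TPM in each of the others. There also, Psmb8 had 565 TPM in library 4, against 504 to 511 TPM in the others. At 4 h without IL-25, Rtp4 had 7.98 TPM in library 4, against 11.5 to 11.7 TPM in the others, and Psmb10 had 267 TPM in library 1, against 249.7 to 252 TPM in the others. At 48 h with IL-25, Tap1 had 82.7 TPM in library 1, against 72.8 to 73.8 TPM in the others. At 48 h without IL-25, Gbp2 had 227 TPM in library 4, against 89.7 to 107 TPM in the others, and Ifitm1 had 24.2 TPM in library 2, against 0 to 0.78 TPM in the others. There also, Parp14 had 20.9 TPM in library 3, against 13.9 to 14.9 TPM in the others, and H2-D1 had 2614 TPM in library 3, against 2362 to 2381 TPM in the others. There also, Shisa5 had 623 TPM in library 2, against 718 to 720.3 TPM in the others. At 72 h with IL-25, Shisa5 had 564 TPM in library 1, against 498 to 504 TPM in the others. At 72 h without IL-25, Ifi27l2a had 33.95 TPM in library 2, against 26.97 to 28.1 TPM in the others, and Tgtp1 had 254 TPM in library 2, against 124 to 143 TPM in the others. There also, Irgm1 had 129 TPM in library 2, against 66.7 to 75.6 TPM in the others, and Iigp1 had 47.7 TPM in library 2, against 8.55 to 10.3 TPM in the others. There also, Psmb8 had 1366 TPM in library 2, against 1066 to 1075 TPM in the others. In nILC2 KO, Gbp2 had 75.4 TPM in library 1, against 35.3 to 39.6 TPM in the others, and Ifi27l2a had 23.2 TPM in library 4, against 49.6 to 53.1 TPM in the others. There also, Irgm1 had 56.3 TPM in library 1, against 35.6 to 37.4 TPM in the others. In nILC2 CTRL, Rtp4 had 27.5 TPM in library 1, against 20.3 to 20.9 TPM in the others. In iILC2 KO, Rtp4 had 2.65 TPM in library 4, against 10.6 to 11.3 TPM in the others. In iILC2 CTRL, Psmb10 had 188 TPM in library 3, against 164 to 165 TPM in the others. No explanation was tested for any of these values. The library at 72 h without IL-25 numbered 2 accounted for 5 of the 23.

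The effect of IL-25 itself differed between times in 28 genes from 4 to 48 h and in 13 from 48 to 72 h, by a test of the difference in limma at an adjusted p under 0.05 over all genes. The values are the later log2 fold change minus the earlier. From 4 to 48 h it moved downward in Tgtp1 (-4.53), Rtp4 (-3.43), Gbp2 (-3.36), Iigp1 (-3.04), Ifi27l2a (-2.18), Irf7 (-1.57), Dhx58 (-1.55), H2-K1 (-1.30), Ly6e (-1.20), Isg15 (-1.13), Parp14 (-1.11), B2m (-1.05), Gbp7 (-1.01), Ddx58 (-0.97), Usp18 (-0.96), Tap1 (-0.94), Irf9 (-0.78), H2-D1 (-0.76), Trim30a (-0.74), Dtx3l (-0.68), Psmb10 (-0.65), Psmb9 (-0.64), Shisa5 (-0.59) and Tap2 (-0.49). It moved upward in Ifitm1 (4.80), Samhd1 (2.04), Sp100 (1.20) and Ifitm3 (1.06). No weight is put on the calls of Iigp1, Usp18 and Ifitm1, which passed the filter on low values mainly through some groups. From 48 to 72 h it moved upward in Irf7 (1.44), Ifitm2 (1.43), Parp14 (1.01), Zbp1 (0.92), Ddx58 (0.90), Parp9 (0.78), Ly6e (0.71), Dtx3l (0.70), Trim30a (0.69), Gbp7 (0.55), H2-D1 (0.36) and B2m (0.25), and downward in Samhd1 (-0.59).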

How the results depend on the processing

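Counts are of the 46 or 48 genes called. Under the median of ratios 2 genes were higher at 4 h, 5 at 72 h, 0 moved downward in the change of the IL-25 effect to 72 h, 30 were higher and 4 lower from 4 to 48 h without IL-25, 0 higher from 48 to 72 h without it and 0 lower with it. Quantile normalization gave 0 downward in the change to 72 h, 0 lower from 48 to 72 h with IL-25, and 4 lower for KO in nILC2. Fitting the compared groups alone gave 2 higher at 4 h, 0 higher and 0 lower from 48 to 72 h without IL-25, 2 lower with it, and 0 lower for KO in nILC2. Array weights gave 2 downward in the change to 72 h and 8 lower for KO in nILC2. Without both 72 h libraries numbered 2 (an alternative chosen after seeing the data), 1 gene was higher from 48 to 72 h without IL-25 and 2 lower with it.

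A replicate block gave 6 lower and 2 higher for KO in nILC2 and moved no other count by over 1.5 times. Correlations of the deviations of same-numbered nILC2 KO and CTRL libraries were 0.125, 0.131, 0.187 and -0.0443. Whether the numbers pair these samples was not settled by them.

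Leaving out 1 library at a time gave 33 to 35 lower and 1 higher for IL-25 at 4 h, 37 to 39 lower and 3 to 4 higher for IL-25 at 48 h, 34 to 37 lower and 3 to 4 higher for IL-25 at 72 h, 22 to 25 lower and 4 to 5 higher for the change of the IL-25 effect to 48 h, 1 to 2 lower and 9 to 15 higher for its change to 72 h. It gave 6 to 9 lower and 14 to 15 higher for 4 to 48 h without IL-25, 0 to 1 lower and 1 to 4 higher for 48 to 72 h without IL-25, 26 to 28 lower and 12 higher for 4 to 48 h with IL-25, 0 to 1 lower and 19 to 26 higher for 48 to 72 h with IL-25. For nILC2 and iILC2 it gave 0 to 11 lower and 0 to 1 higher for KO in nILC2, 0 lower and 0 higher for KO in iILC2, 0 lower and 0 to 6 higher for the difference of the KO effects, 19 to 24 lower and 3 higher for iILC2 against nILC2 in CTRL, 13 to 18 lower and 3 to 5 higher for iILC2 against nILC2 in KO.

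Uncalled KO values close to 0 changed sign. In nILC2 Irf7 was -0.052 with array weights and ran over -0.0999 to 0.29 without a library, and Stat2 over -0.13 to 0.0318. In iILC2 B2m was 0.016 with both other scalings and ran over -0.0429 to 0.0237 without a library, Stat2 was -0.012 with array weights, -0.0058 with a term for Y-linked expression and ran over -0.0697 to 0.067 without a library, Irf1 over -0.0976 to 0.0218 and Nlrc5 over -0.0319 to 0.32. The causes were not tested. Read depth is unknown, so no counting error stands behind any TPM, and genes near 1 TPM are the least certain.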
